A study of Mus musculus with 4 samples.

Results

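The phagocyte NADPH oxidase is an enzyme complex that passes electrons from NADPH to oxygen and so makes superoxide. The 6 genes followed here encode its membrane subunits (Cyba, Cybb), 2 of its cytosolic subunits (Ncf1, Ncf4) and Rac GTPases (Rac1, Rac2). They were selected on the log2 differences between the genotypes in these same arrays, where subunits went in opposite directions. Every probe set that the platform annotation gives to one of them alone was taken, which gave 9 probe sets for the 6 genes, of 22626 probe sets and 12393 genes in all.

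The cells were Langerhans cells, the dendritic cells of the epidermis, from the ear skin of mice deficient in Ahr exon 2 (AhR-deficient; Ahr encodes the aryl hydrocarbon receptor, a ligand-activated transcription factor) and of wild-type C57BL/6 mice, with 2 arrays per genotype. The mice were untreated, and the cells of both genotypes spent 16 hours in culture before living cells with surface MHC class II were sorted to more than 95% purity. The samples are labelled as biological replicates, but the labels do not say how many mice each came from, nor the age of the mice or the strain background of the deficient mice. Amplified, biotin-labelled RNA was hybridised to Affymetrix MOE430A arrays, and values are log2 expression per probe set.

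In resting phagocytes the enzyme is disassembled. Cybb (gp91phox) carries the haem and flavin that move electrons, and Cyba (p22phox) stabilises it in the membrane and serves as the docking site for Ncf1 (p47phox). On stimulation Ncf1 is phosphorylated and moves to the membrane with Ncf4 (p40phox), whose PX domain binds a phosphoinositide of phagosome membranes, and GTP-bound Rac completes the active complex. In dendritic cells the oxidase is known for acting on the phagosome, where it slows acidification and the breakdown of antigen.

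The promoters of the subunit genes are shown so that subunits with opposite differences can be read beside each other. The set of RefSeq promoters used here (GRCm38.p6) held 3 of the 6 genes and lacked Ncf4, Rac1 and Rac2. The 250 bases before the start site are printed 5′ to 3′ on the gene's strand, which is the minus strand for each of the 3. Capitals mark matches to 5 motifs searched on both strands. They were the core to which AhR and Arnt bind, spelled GCGTG, its extended form TNGCGTG, the PU.1 core GAGGAA, the interferon-stimulated response element core GAAANNGAA and the AP-1 motif TGANTCA.
Cyba, chr8:122432941-122433190: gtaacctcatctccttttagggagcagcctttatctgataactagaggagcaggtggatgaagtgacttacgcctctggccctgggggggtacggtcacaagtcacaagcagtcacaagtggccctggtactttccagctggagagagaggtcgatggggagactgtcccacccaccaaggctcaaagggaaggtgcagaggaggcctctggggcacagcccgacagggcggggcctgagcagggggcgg
Ncf1, chr5:134229626-134229875: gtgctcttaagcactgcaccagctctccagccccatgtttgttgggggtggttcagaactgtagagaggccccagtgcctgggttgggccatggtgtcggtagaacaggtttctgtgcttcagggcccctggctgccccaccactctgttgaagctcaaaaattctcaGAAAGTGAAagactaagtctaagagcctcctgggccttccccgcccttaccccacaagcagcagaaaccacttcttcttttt
Cybb, chrX:9469325-9469574: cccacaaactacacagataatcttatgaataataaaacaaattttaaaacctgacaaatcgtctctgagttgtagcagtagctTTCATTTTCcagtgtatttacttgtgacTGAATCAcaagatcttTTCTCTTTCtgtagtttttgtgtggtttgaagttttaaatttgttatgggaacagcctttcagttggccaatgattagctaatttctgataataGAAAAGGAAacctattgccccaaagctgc
The Cyba window held no match to any of the 5 motifs. Ncf1 held 1 match to the interferon element core, which begins 82 bases before the start site. Cybb held 3 matches to that core, beginning 167, 123 and 29 bases before the start, and 1 match to the AP-1 motif, which reads the same on both strands. The printed matches do not overlap, while the short AhR core lies inside its extended form by construction. Among all 32851 RefSeq promoter windows of this length, 7.13% held the interferon element core and 6.75% the AP-1 motif. The AhR core was in 28.2% of them, its extended form in 4.1% and the PU.1 core in 23.3%. The Cybb start site in this table lies inside the annotated span of the gene. A match describes letters in the window and is not a binding site.

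The membrane subunits differed from each other. Cyba, measured by 1 probe set, had log2 values of 9.80 and 10.09 in AhR-deficient cells, against 8.89 and 8.67 in wild-type cells. Both AhR-deficient arrays lay above both wild-type arrays, with a gap of 0.91 between the groups. The log2 difference was 1.16 (SE 0.14, n = 2 per genotype), which is 2.24-fold. In these sorted populations fewer cells of a type and less RNA per cell cannot be told apart, here and in the results that follow.

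Cybb, the catalytic subunit, had log2 values of 4.64 and 4.73 in AhR-deficient cells, against 4.56 and 4.61 in wild-type cells. These lay at the dim end of the arrays, between the 24.9th and 29.0th percentile of all probe sets. The AhR-deficient arrays were above the wild-type arrays by a gap of only 0.03, and the log2 difference was 0.10 (SE 0.08). A difference in Cybb could be understated at this signal.

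The cytosolic subunits Ncf4 and Ncf1 were lower in AhR-deficient cells. Ncf4, the subunit with the PX domain that recognises phagosome membranes, had log2 values of 7.05 and 6.40 in AhR-deficient cells, against 8.83 and 9.66 in wild-type cells. The arrays did not overlap, and the gap between the groups was 1.79. The log2 difference was -2.52 (SE 0.37), a level in AhR-deficient cells of 0.174 times that in wild-type cells. The replicates were also far apart, by 0.65 between the AhR-deficient arrays and 0.82 between the wild-type arrays. By size alone, with no regard to spread, this difference ranked 7 among the 22626 probe sets.

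Ncf1, the organiser that links the cytosolic subunits to Cyba, was measured by 2 probe sets that the annotation ties to the same sequence record. The brighter one, 1451767_at, had log2 values of 7.79 and 7.87 in AhR-deficient cells, against 8.50 and 8.83 in wild-type cells. Its arrays did not overlap, and the log2 difference was -0.83 (SE 0.14), or 0.561-fold. The dimmer probe set, 1425609_at, had 6.33 and 6.36 in AhR-deficient cells, against 6.38 and 6.90 in wild-type cells. It was lower in the same direction by -0.29 (SE 0.19), but the gap between the groups was 0.02, and without wild-type replicate 2 the difference was -0.03. The size of the Ncf1 difference thus depends on the probe set.

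**Figure D1:**
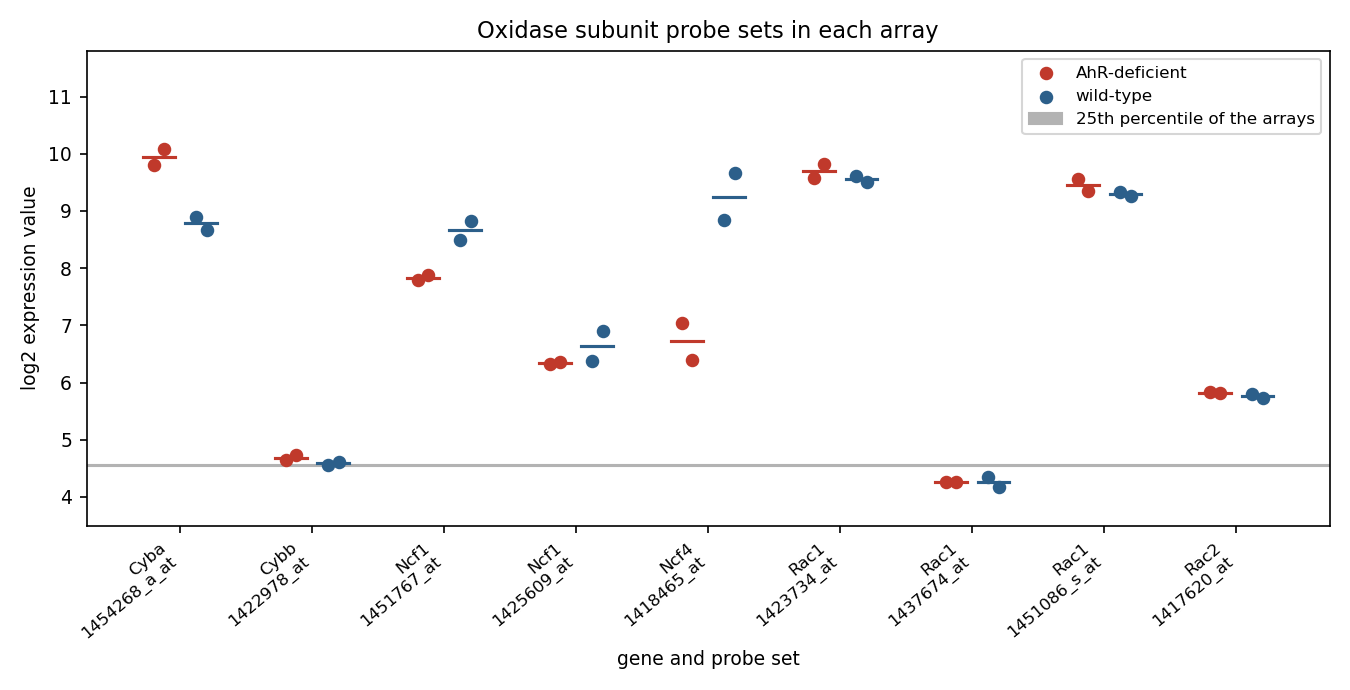
Log2 expression value (vertical axis) of the 9 oxidase subunit probe sets (horizontal axis) in each array, with AhR-deficient arrays in red to the left of wild-type arrays in blue and a bar at each group mean. Cyba is higher and Ncf4 and Ncf1 1451767_at are lower in both AhR-deficient arrays, while Cybb and Rac1 1437674_at lie near or below the grey band at the 25th percentile of the arrays.

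The Rac GTPases differed little. Rac1, the ubiquitous Rac, had on its brightest probe set, 1423734_at, log2 values of 9.58 and 9.82 in AhR-deficient cells, against 9.61 and 9.51 in wild-type cells. These arrays overlapped, and the log2 difference was 0.14 (SE 0.12). The probe set 1451086_s_at, of a type that can match more than one transcript, had 9.56 and 9.35 in AhR-deficient cells, against 9.34 and 9.27 in wild-type cells, for a log2 difference of 0.16 (SE 0.10) with a gap of 0.02. The third Rac1 probe set, 1437674_at, lay below the 25th percentile on all 4 arrays and differed by 0.01 (SE 0.09). Rac2, the haematopoietic Rac, had 5.83 and 5.81 in AhR-deficient cells, against 5.80 and 5.73 in wild-type cells. Its arrays were set apart by 0.02, with a log2 difference of 0.06 (SE 0.08).

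Counted over probe sets, 4 of 9 were higher and 3 of 9 lower with no overlap between the genotypes. Over all probe sets 19% were higher and 16.2% lower without overlap, so nothing is read from the count, which the choice of genes also shaped. For Cybb, Rac2, Rac1 1451086_s_at and Ncf1 1425609_at the gap between groups was 0.03 or less. The gaps were at least 0.62 for Cyba, Ncf4 and Ncf1 1451767_at. With any array left out, the log2 difference ranged from 1.02 to 1.31 for Cyba and from -2.94 to -2.11 for Ncf4. For Ncf1 1451767_at it ranged from -1.001 to -0.665. Where arrays do not overlap, leaving an array out cannot turn the sign, so these ranges show only the spread between replicates.

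**Figure D2:**
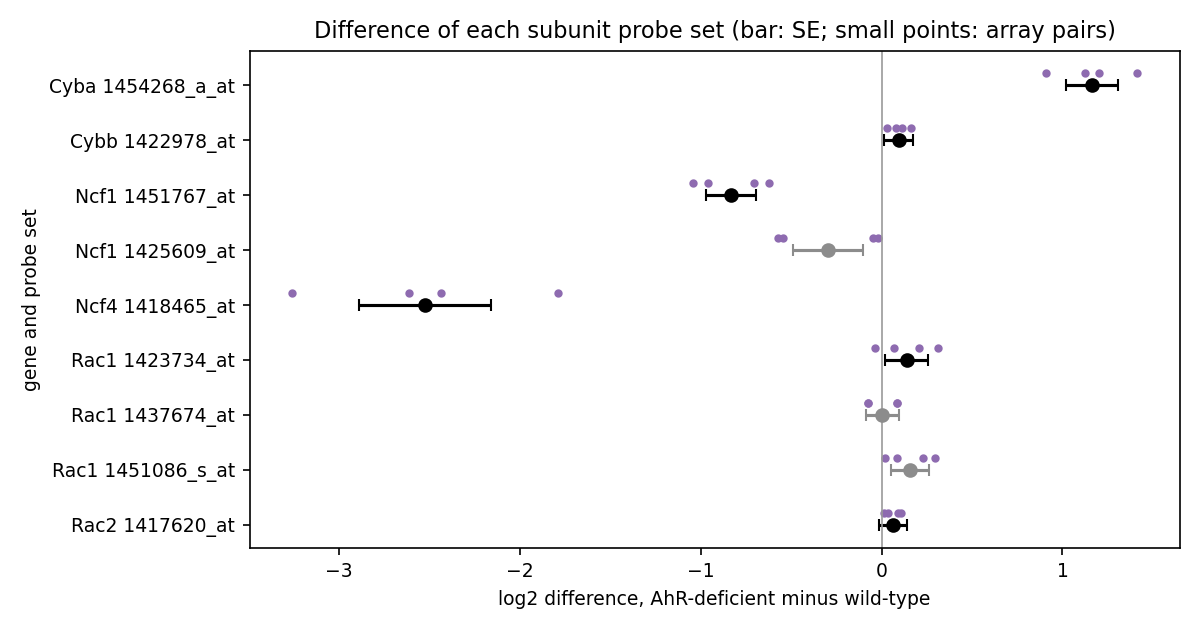
Log2 difference, AhR-deficient minus wild-type (horizontal axis), of each subunit probe set (vertical axis), with the limma standard error as a bar and the 4 differences between single arrays as small points. The brightest probe set of each gene is in black and the others in grey; the single-array differences run from 0.91 to 1.41 for Cyba and from -3.26 to -1.79 for Ncf4.

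Across all genes the genotype contrast gave few calls. By limma with a threshold of 0.05 on the adjusted p, 0 genes passed as higher and 4 as lower (0.0323% of genes), and 811 genes (6.54%) had an unadjusted p under 0.05. Ahrr, the AhR repressor and a known AhR target, had 5.32 and 5.09 in AhR-deficient cells, against 8.26 and 8.38 in wild-type cells and fell by 3.11 on the log2 scale (SE 0.11, limma adjusted p = 0.0403); with any array left out it no longer passed, at adjusted p-values from 0.198 to 0.469. Ahr itself was 0.66 higher in AhR-deficient cells (SE 0.23, limma adjusted p = 0.811), and its probe sets are not known to lie in the deleted exon, so it does not check the labels. Array medians lay between 5.60 and 5.63, and no pair of arrays was identical. Across probe sets the Pearson r was 0.9902 between the AhR-deficient arrays and 0.9871 between the wild-type arrays. Between arrays of different genotype it ran from 0.9795 to 0.9894. The wild-type arrays were thus no more alike than some pairs across genotypes. The 3' minus 5' log2 signal of the Actb controls, a measure of RNA integrity and amplification, was 2.34 and 2.61 in AhR-deficient cells, against 3.16 and 2.65 in wild-type cells without overlap, and that of the Gapdh controls was 2.24 and 2.19 in AhR-deficient cells, against 2.60 and 1.97 in wild-type cells with overlap. The part of RNA quality in the subunit differences was not tested.

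The rest of the pathway held no gene that passed. Of 124 further genes in 7 lists, 99 were measured, and limma called 0 of them higher and 0 lower, where 0.0323% of all genes were called. At an unadjusted p under 0.05 there were 4 higher and 8 lower, together 12 of the 99, where 6.54% of all genes were. Without overlap, 20 of the 99 were higher and 17 lower. All genes gave 18.8% and 16.6%, the shares to compare for each pathway list below as well. The median log2 difference of the 99 was 0.01, the same as over all genes. The smallest adjusted p was 0.319, and those of the genes named below run upward from there. Of 33 pathway genes named below, 19 had a difference that shifted by more than 1.5 times with one or another array left out, and 3 of them turned in sign.

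Among relatives and partners of the oxidase, 10 of 18 listed genes were measured, with 3 higher and 1 lower without overlap and a median of 0.03. Nox1 and Prdx6 were not analysed here. Hvcn1, the proton channel that balances the charge the oxidase moves, had 6.69 and 6.33 in AhR-deficient cells, against 6.67 and 7.33 in wild-type cells, for a log2 difference of -0.49 (SE 0.27) with overlapping arrays. Pla2g4a, the cytosolic phospholipase A2 that frees arachidonic acid, differed by -0.40 (SE 0.11) without overlap. Cybc1, a chaperone that the Cyba and Cybb proteins need, differed by -0.10 (SE 0.21), and Rap1a, a small GTPase that copurifies with the membrane subunits, by -0.05 (SE 0.11). Nox4, a Cyba-dependent relative of Cybb, lay below the 25th percentile on all 4 arrays and differed by 0.07 (SE 0.08). The Duox maturation factors Duoxa1 and Duoxa2 differed by 0.12 (SE 0.08) and 0.03 (SE 0.07). Duoxa2 also lay below the 25th percentile on all 4 arrays.

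Of 20 kinases that phosphorylate subunits or make their lipid ligands, 16 were measured, with a median of 0.05. Among them, 5 were higher and 5 lower without overlap (18.8% and 16.6% of all genes). Pik3cg, the PI3-kinase gamma that works downstream of chemoattractant receptors, had 7.49 and 7.46 in AhR-deficient cells, against 6.57 and 6.31 in wild-type cells, for a log2 difference of 1.03 (SE 0.11, limma adjusted p = 0.319). Its other probe set differed by 0.47 (SE 0.21). Pik3cg lies within 10 Mb of Ahr in the RefSeq annotation, and 0 of the 6 oxidase genes do. Prkcd, a protein kinase C that phosphorylates Ncf1, had 9.43 and 8.67 in AhR-deficient cells, against 8.26 and 8.52 in wild-type cells, for a log2 difference of 0.67 (SE 0.28). Leaving out the first AhR-deficient array gave 0.29, and leaving out the second gave 1.05. Pik3r4, a subunit of the kinase complex that makes the lipid bound by the Ncf4 PX domain, differed by -0.28 (SE 0.08), while Prkcz differed by -0.23 (SE 0.08, with -0.12 on a dimmer probe set that overlapped) and Btk by 0.21 (SE 0.08). The arrays of these genes did not overlap, and none passed the test.

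Rac regulators and Rac-dependent actin genes were similarly mixed. Of 22 exchange factors, GTPase-activating proteins and inhibitors, 16 were measured, with 3 higher and 2 lower without overlap and a median of 0.03. Tiam1, a Rac exchange factor, had 5.50 and 5.21 in AhR-deficient cells, against 5.99 and 5.83 in wild-type cells, for a log2 difference of -0.55 (SE 0.14). Its dimmer probe set differed by 0.00 (SE 0.08). Arhgdib, the haematopoietic inhibitor that holds Rac in the cytosol, differed by -0.33 (SE 0.15). Dock2, a haematopoietic Rac exchange factor, and its partner Elmo1 differed by 0.23 (SE 0.10) and 0.30 (SE 0.09), and Vav1 by 0.24 (SE 0.18) with overlap.

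Of 20 other small GTPase and actin effector genes, 19 were measured, with 5 higher and 3 lower without overlap and a median of -0.03. Rhob, an inducible endosomal small GTPase, had 6.86 and 6.70 in AhR-deficient cells, against 7.41 and 7.83 in wild-type cells, for a log2 difference of -0.84 (SE 0.17, limma adjusted p = 0.599). Nckap1l, the haematopoietic subunit of the WAVE complex, differed by 0.37 (SE 0.19), and Wasf2, another subunit, by -0.22 (SE 0.11). Abi1 of the same complex differed by 0.25 (SE 0.10) on its brightest probe set and by -0.21 (SE 0.11) on another, so its probe sets disagree. Cdc42, which like Rac drives actin assembly, differed by 0.09 (SE 0.09) with overlap. Its dimmer probe set 1435807_at differed by 0.80 (SE 0.11) without overlap and did not pass either. The Cdc42 probe sets 1415724_a_at and 1449574_a_at overlapped and differed by 0.13 (SE 0.23) and 0.02 (SE 0.12).

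**Figure D3:**
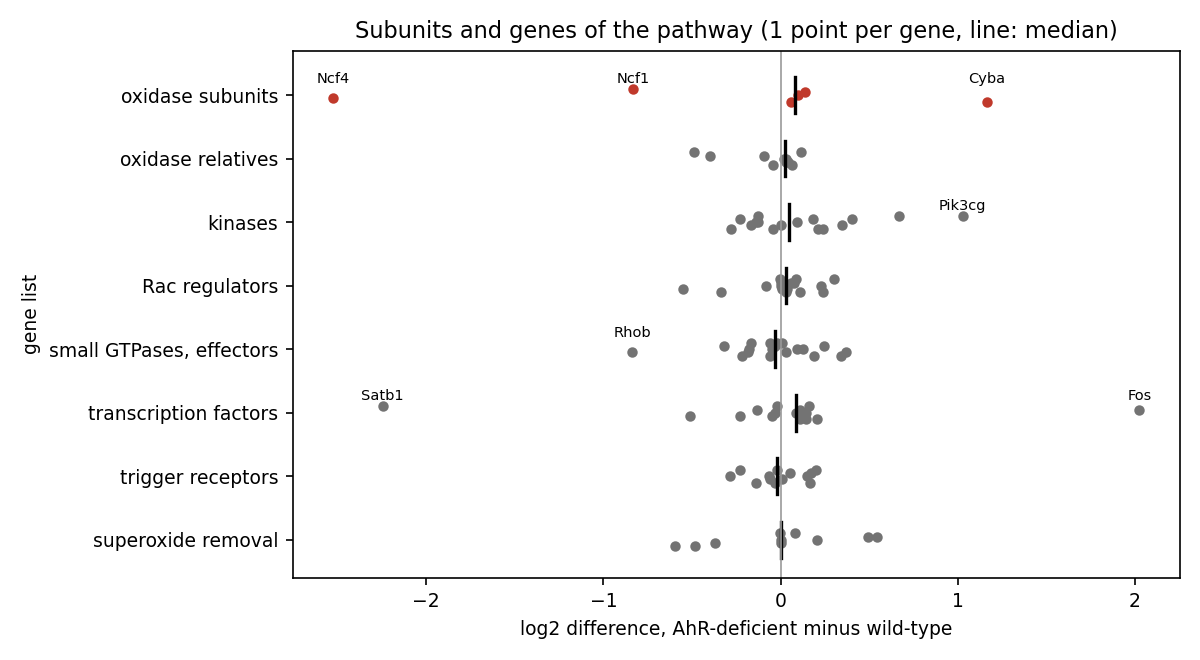
Log2 difference, AhR-deficient minus wild-type (horizontal axis), of the 6 subunit genes in red and of the measured genes of the 7 pathway lists in grey (vertical axis), with 1 point per gene and a line at each list's median. List medians lie between -0.03 and 0.09, and Ncf4, Satb1 and Fos are the outermost points.

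Transcription factors known for subunit genes of myeloid cells were measured for 15 of 18 listed, with 3 higher and 3 lower without overlap and a median of 0.09. Spi1 (PU.1), a known activator of the Cybb, Ncf1 and Ncf4 genes, had 6.95 and 6.83 in AhR-deficient cells, against 6.64 and 6.73 in wild-type cells, for a log2 difference of 0.20 (SE 0.09). Irf8, which acts with PU.1, had 8.91 and 8.52 in AhR-deficient cells, against 9.15 and 9.29 in wild-type cells. Its differences on the 2 probe sets were -0.51 (SE 0.16) and -0.58 (SE 0.12), without overlap. Neither factor passed, and their differences were opposite in sign.

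Larger differences with wide spread were seen in this list for Satb1 and Fos. Satb1, a chromatin organiser, had 4.17 and 3.89 in AhR-deficient cells, below the 25th percentile, and 7.01 and 5.54 in wild-type cells, for a log2 difference of -2.24 (SE 0.52, limma adjusted p = 0.650). Its 2 dimmer probe sets differed by -0.60 (SE 0.20) and -0.33 (SE 0.11), so the size depends on the probe set. The last of these lay below the 25th percentile on all 4 arrays. Fos, an AP-1 subunit, had 11.29 and 11.14 in AhR-deficient cells, against 8.36 and 10.02 in wild-type cells, for a log2 difference of 2.02 (SE 0.57, limma adjusted p = 0.724), or 1.20 without wild-type replicate 1. Its partner Jun differed by -0.23 (SE 0.10). For Satb1 and Fos the wild-type replicates lay far apart.

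Receptors that trigger the oxidative burst gave 13 measured genes of 14, with a median of -0.02. Of these, 0 were higher and 1 lower without overlap (18.8% and 16.6% of all genes). The 1 was Fcgr2b, the inhibitory Fc receptor, at 8.39 and 8.63 in AhR-deficient cells, against 8.75 and 8.85 in wild-type cells, for a log2 difference of -0.29 (SE 0.11); its other probe sets overlapped. Enzymes that remove superoxide and peroxide gave 10 measured of 12, with 1 higher and 2 lower without overlap and a median of 0.00. Sod1, the cytosolic superoxide dismutase, had 8.28 and 8.99 in AhR-deficient cells, against 9.28 and 9.17 in wild-type cells, for a log2 difference of -0.60 (SE 0.26). Leaving out the first AhR-deficient array gave -0.24 and leaving out the second gave -0.95, and the dimmer Sod1 probe set differed by -0.27 (SE 0.12). Gpx4, which reduces lipid peroxides, differed by -0.48 (SE 0.16), and Txnrd1, thioredoxin reductase, by 0.54 (SE 0.17), while the other Txnrd1 probe sets overlapped and differed by 0.14 (SE 0.11) and -0.08 (SE 0.09). The mitochondrial Sod2 differed by 0.21 (SE 0.16) with overlap, and the difference for catalase (Cat) was 0.00 (SE 0.07).

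Ncf4 and Rac2 are near each other on the same mouse chromosome, with 10 protein-coding genes between them in the RefSeq annotation, so the neighbourhood was examined. Of 34 protein-coding genes within 500 kb of either, 25 were measured, and limma called 0 of them; 1 was higher and 6 were lower without overlap, against 18.8% and 16.6% of all genes. Their differences ran from -0.57 to 0.46 with a median of -0.05. Ncf4 was chosen by its difference in these same arrays, so nothing is read from its -2.52 exceeding those of its neighbours. The lowest was Csf2rb2, a beta chain of the mouse IL-3 receptor and the gene next to Ncf4, with 10.82 and 10.96 in AhR-deficient cells, against 11.15 and 11.78 in wild-type cells, for a log2 difference of -0.57 (SE 0.23, limma adjusted p = 0.857), or -0.89 with the first wild-type array left out and -0.26 with the second left out. Csf2rb, the beta chain shared by the GM-CSF receptor, overlapped and differed by -0.29 (SE 0.43). The others without overlap were Pdxp (-0.29, SE 0.09), Lgals2 (-0.24, SE 0.13, with its other probe set at 0.06), Card10 (-0.19, SE 0.12), Sstr3 (-0.09, SE 0.08), Txn2 (-0.09, SE 0.08) and C1qtnf6 (0.21, SE 0.10).

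**Figure D4:**
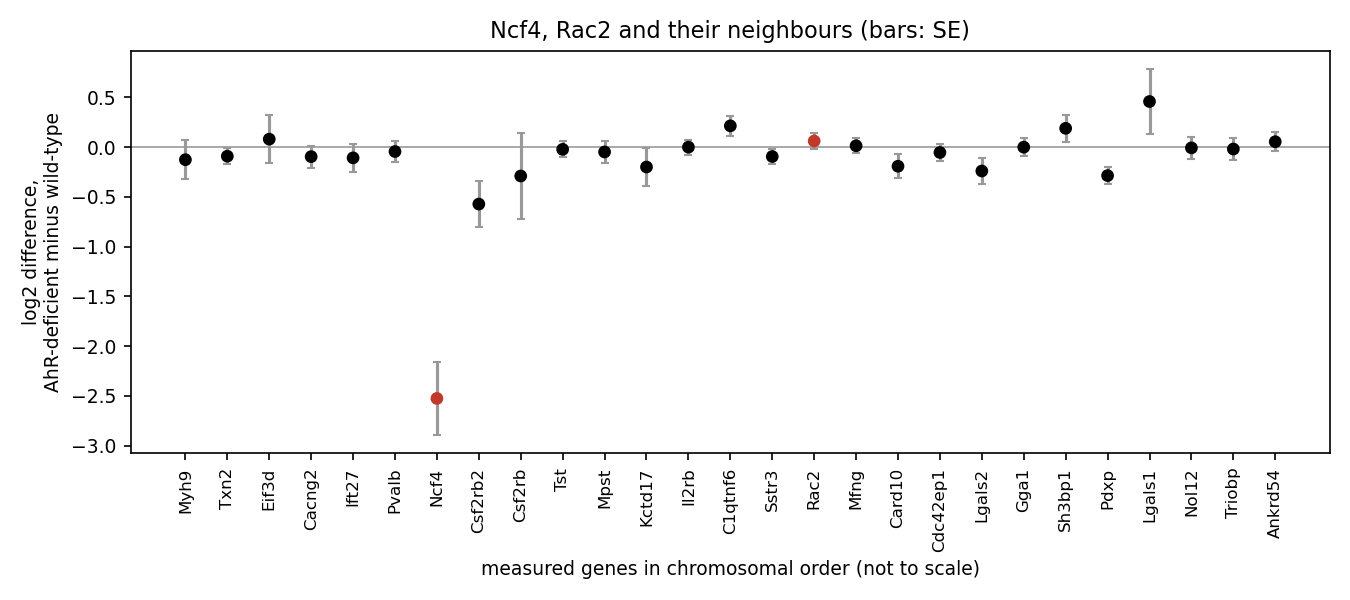
Log2 difference, AhR-deficient minus wild-type (vertical axis), of Ncf4, Rac2 and the 25 measured neighbours in chromosomal order (horizontal axis, not to scale), with limma standard errors as bars. Ncf4, chosen by its difference in these same arrays, is at -2.52, and the neighbours lie between -0.57 and 0.46.

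The genes most like the outermost subunits were found by the Euclidean distance between mean-centred log2 profiles over the 4 arrays. Nearest to Cyba were Pik3cg (distance 0.26), Smpdl3a (0.29) and Nabp1 (0.29). Pik3cg is thus both a listed kinase and the closest profile to Cyba. Nearest to Ncf4 were Pla2g7 (0.55), Sh3bp5 (0.61) and Ier3 (0.63). Pla2g7, which encodes platelet-activating factor acetylhydrolase, had 6.34 and 5.94 in AhR-deficient cells, against 7.63 and 8.74 in wild-type cells. With 4 arrays many genes share a profile, so this is a description of likeness only.

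Markers of the sorted cells and of other cells that use the oxidase were measured beside the subunits. The Langerhans cell markers Cd207 (langerin) and Epcam were bright on all arrays, with Cd207 at 11.21 and 11.71 in AhR-deficient cells, against 11.00 and 12.06 in wild-type cells. Of the 9 Langerhans and dendritic cell markers, 5 were higher and 0 lower without overlap. All genes gave 18.8% and 16.6%, here and for each marker list that follows. The 5 were H2-Aa (log2 difference 1.31), H2-Ab1 (1.24), Cd74 (0.93), Cd83 (0.61) and Itgax (0.14). The arrays of Cd207 (-0.07), Epcam (-0.32), Ly75 (0.13) and Ccr7 (-0.06) overlapped. The list's mean log2 value was 10.62 and 10.49 in AhR-deficient cells, against 10.03 and 10.20 in wild-type cells. Neutrophils are the cell type best known for this oxidase, and of 12 neutrophil markers 11 were measured, with 3 higher and 1 lower without overlap, a median difference of 0.01 and a mean log2 value of 5.62 and 5.70 in AhR-deficient cells against 5.66 and 5.65 in wild-type cells. Their abundant transcripts S100a8 and S100a9 lay below the 25th percentile on every array. None of the other measured neutrophil markers did. Elane, for example, had 6.73 and 6.82 in AhR-deficient cells, against 6.81 and 6.72 in wild-type cells, above the array medians.

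Most monocyte and macrophage markers had higher values in AhR-deficient cells. Of 12 listed, 11 were measured, and 8 were higher and 2 lower without overlap (18.8% and 16.6% of all genes), with a median of 0.70 and a mean log2 value of 7.16 and 6.74 in AhR-deficient cells against 6.39 and 6.66 in wild-type cells. No macrophage marker lay below the 25th percentile on every array. Ccr2, counted as higher, was near or below it, at 4.43 and 4.58 in AhR-deficient cells, against 4.37 and 4.41 in wild-type cells. Cd68, a lysosomal protein of phagocytes, had 8.53 and 8.34 in AhR-deficient cells, against 7.08 and 7.55 in wild-type cells. The 2 lower markers were Csf1r and Adgre1. Csf1r, the receptor for CSF-1, had 10.54 and 10.14 in AhR-deficient cells, against 11.07 and 11.70 in wild-type cells. Adgre1 had 6.92 and 5.84 in AhR-deficient cells, against 7.11 and 7.43 in wild-type cells. T cell markers, 8 measured of 10, gave 0 higher and 4 lower without overlap (18.8% and 16.6% of all genes), with a mean log2 value of 5.30 on both AhR-deficient arrays and of 5.71 and 5.59 on the wild-type arrays. Of 10 keratinocyte markers 9 were measured, with 5 higher and 0 lower and a mean of 5.82 and 5.21 in AhR-deficient cells against 5.02 and 5.15 in wild-type cells; Sfn and Krt15 lay below the 25th percentile throughout. Mast cell markers (7 of 7 measured, 3 higher and 2 lower, median 0.00) and melanocyte markers (4 of 5 measured, 0 higher and 0 lower, median -0.03) were also measured. No marker passed in limma, and the part of these cell types in the differences of Cyba, Ncf1 and Ncf4 was not tested.

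**Figure D5:**
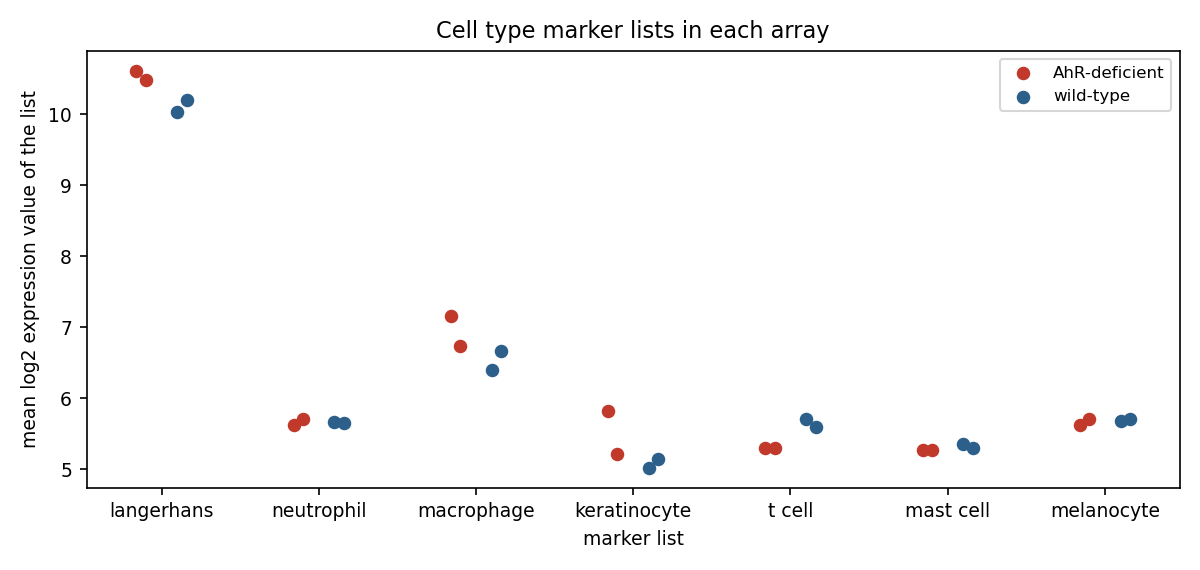
Mean log2 expression value (vertical axis) of each cell type marker list (horizontal axis) in each array, with AhR-deficient arrays in red to the left of wild-type arrays in blue. The macrophage list is higher on both AhR-deficient arrays (7.16 and 6.74, against 6.39 and 6.66 in wild-type), and the neutrophil list lies between 5.62 and 5.70 on all 4.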

How the data were processed

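Values are log2 expression per probe set as deposited, made with affy and RMA per the submitters' processing notes, with versions not given in the sources used here. RMA removes background, matches the arrays' distributions and combines the probes of each set, so differences of dim probe sets can be understated. No further scaling was applied. The file held 22690 probe sets; 64 were Affymetrix controls, which did not enter the test, and 22626 did. Single gene symbols, from the platform annotation, covered 20380 of these and named 12393 genes, each taken by its brightest probe set on average.

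The genotype contrast was fitted in R 4.3.3 by limma 3.58.1 with lmFit and eBayes as a two-sided test, and p-values were adjusted by Benjamini-Hochberg over all tested probe sets (threshold 0.05). Standard errors (SE) are the moderated ones of that fit. The fit was also run on simulated data with independent noise, which checked only the sign and mean size of differences. The oxidase genes, gene lists and rules were chosen with earlier results of these data known, so the oxidase genes are described without a test. Named genes were every probe set of the oxidase genes, a set of pathway genes, from each pathway list up to 4 genes with the smallest unadjusted p among those with non-overlapping arrays, genes within 500 kb of Ncf4 and Rac2, and the 3 genes most like the outermost oxidase genes. Alternatives were a replicate block, other scalings, filters, eBayes settings and probe set rules, and leaving out each array. The number of arrays limits the precision. Replicate numbers are not said to mark a shared litter or day, and p-values measure only the spread between these samples.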

Additional observations from a re-analysis of the deposited data

How the results depend on the processing

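Quantile normalisation again, median centring and 16 added before log2 gave differences from 1.13 to 1.15 for Cyba, from -2.56 to -2.36 for Ncf4 and from -0.87 to -0.79 for Ncf1 1451767_at, and the mean of both Ncf1 probe sets gave -0.56 in place of -0.83. The array weights, eBayes settings, replicate blocks and probe set filters leave a probe set's difference as it is by construction and say nothing of its stability. With single arrays left out they ranged from 0.05 to 0.14 for Cybb, from 0.02 to 0.26 for Rac1 and from 0.02 to 0.10 for Rac2, while the dim Rac1 probe set turned in sign, between -0.08 and 0.09. No pathway gene was called under any of the alternatives. Of the 4 probe sets called lower in the whole comparison, 0 were called with any array left out, with the replicate block or with 16 added before log2, and with a trend in eBayes there were 7 lower and 1 higher; the cause was not tested. Same-numbered arrays deviated in opposite directions (r = -0.31 across probe sets), and pairing the numbers crosswise as a block, an alternative added after seeing the data, called 0 lower. The medians of 6 lists turned in sign when single arrays were left out, between -0.030 and 0.134 for kinases, -0.051 and 0.047 for oxidase relatives, -0.084 and 0.096 for transcription factors, -0.070 and 0.005 for small GTPases and actin effectors, -0.062 and 0.060 for superoxide removal and -0.045 and 0.057 for trigger receptors. The signal of Cybb over background limits what its value can show.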
